A study of Mus musculus with 12 samples.

Results

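Goblet cells are the mucus-secreting cells of the intestinal epithelium, and 10 of their genes were examined here in mouse jejunum after bile duct ligation: Muc2, Muc13, Muc3, Tff3, Fcgbp, Zg16, Spdef, Agr2, Spink4 and Retnlb. The genes are a list of names with no threshold on a measured value, drawn up with earlier results of these data known. Each gene was read from the probe set that carries its name alone in the platform's gene table, and from the brightest where there were several. This gave values for 9 of the 10 genes, among 19938 genes with such a probe set. Fcgbp has 3 probe sets on the array, and all of them carry several gene names, so no value is given for it.

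The study asked which jejunal genes respond to cholestasis, the loss of bile flow to the gut, and whether the response differs between mouse strains. Common bile duct ligation (CBDL) was done in male A/J mice and male C57BL/6J mice (B6), all 8 weeks old, and sham mice of both strains had the operation without dissection and ligation of the duct. Jejunal total RNA was taken on day 7 and hybridized to 12 arrays, 3 in each group (B6 CBDL, B6 sham, A/J CBDL and A/J sham). The arrays of a group are labelled as separate samples and nothing more is said of their origin, so the p-values speak only to the spread among these samples, and their number limits the precision. Values are log2 signals from RMA, a method that summarises the probes of a gene, and a difference of 1 on this scale is a 2-fold difference.

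Goblet cells store the gel-forming mucin Muc2 in granules and release it with small partner proteins to make the mucus layer that keeps bacteria away from the epithelium. Muc2 is folded in the endoplasmic reticulum with the help of Agr2, then heavily glycosylated in the Golgi, and the transcription factor Spdef drives the final maturation of the cell. Transmembrane mucins such as Muc13 and Muc3 line the brush border of enterocytes as well. Type 2 cytokines such as IL13 raise the number of goblet cells and induce Retnlb.

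The table as a whole was even, with array medians of 5.36 to 5.51, and the array least like the rest was A/J sham replicate 1, at a mean correlation of 0.970. The 12 enterocyte markers averaged 12.3 to 12.5 on the arrays. Of 3 measured colon markers, the hindgut genes Hoxb13 and Hoxd10 lay between 3.82 and 4.94, while Car1 ran from 4.03 to 4.70 in A/J sham and from 6.39 to 10.28 in the other groups, and its difference between the sham groups was called (limma adjusted p = 0.0159). The mean of 4 small intestinal region markers was 6.28 to 6.49 in A/J sham and 6.86 to 7.25 in A/J CBDL. It was 6.46 to 6.80 in B6 sham and 6.55 to 6.98 in B6 CBDL. After CBDL in A/J mice Fabp6, Slc10a2 and Onecut2 had higher means and Gata4 a lower one. There 0 of 4 were called and 3 of 4 had an unadjusted p under 0.05 in limma (14.2% of all probe sets). Slc10a2 in A/J mice is in the study's own list at an FDR under 0.05. Markers of other cells moved with the groups. The mean of 9 hepatocyte markers was 5.01 to 5.76 on the A/J sham arrays and 9.22 to 9.84 on the A/J CBDL arrays, with 6.91 to 9.22 for B6 sham and 9.40 to 9.63 for B6 CBDL. After CBDL 9 of these 9 markers were called higher in A/J mice (0.818% of all probe sets were called in either direction). In B6 mice 0 of 9 were called (0.0534%) and 5 of 9 had an unadjusted p under 0.05 in limma (7.64%). There 9 of 9 had a higher mean after CBDL, with a median log2 difference of 1.17. The test of whether CBDL acted differently in the strains called 0 of 9 (0.0366%), with 6 of 9 unadjusted (6.88%). Mat1a, Bhmt and Fga are in the study's own list for B6 mice at an FDR under 0.05. The mean of 7 smooth muscle markers ran from 6.85 to 7.55 in B6 CBDL and from 6.76 to 8.85 in the other groups. That of 5 T cell markers ran from 6.05 to 6.22 in B6 CBDL and from 6.45 to 6.85 in the other groups. After CBDL in B6 mice 7 of 7 and 5 of 5 of these were lower at an unadjusted p under 0.05 in limma (7.64% of all probe sets). None of them was called there, and the study's own list has Cd3d and Cd3g as lower in B6 mice. The part of these other cells in the results below was not tested.

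None of the 9 genes passed the test after CBDL. Leaving out Retnlb, the other 8 genes differed between CBDL and sham by -0.26 to 0.37 on the log2 scale in either strain. Their 95% intervals stayed within -0.61 and 0.73, that is between 1.53-fold lower and 1.66-fold higher in array signal. Muc2, Muc3, Muc13, Tff3 and Zg16 were brighter than 98.9% or more of all probe sets. How closely signal follows RNA at that level was not tested. In limma, with p adjusted over all 35556 probe sets by the Benjamini-Hochberg method and a call at an adjusted p under 0.05, 0 of the 9 genes were called in A/J mice, against 0.818% of all probe sets. In B6 mice 0 of 9 were called, against 0.0534%. At an unadjusted p under 0.05 the counts were 2 of 9 in A/J mice (14.2% of all probe sets) and 0 of 9 in B6 mice (7.64%). The test of whether CBDL acted differently in the strains called 0 of 9 (0.0366%), with 1 of 9 at an unadjusted p under 0.05 (6.88%), and CBDL averaged over both strains called 0 of 9 (1.74%), with 1 of 9 unadjusted (14.1%). In bulk tissue, a change in the number of goblet cells and one in RNA per goblet cell cannot be told apart.

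Between the strains, 1 gene was called. Agr2 was lower in A/J than in B6 mice in the sham comparison, where 1 of 9 genes was called (1.87% of all probe sets) and 3 of 9 had an unadjusted p under 0.05 (15.4%). Averaged over both operations, again 1 of 9 was called (4.63%), with 5 of 9 unadjusted (19.9%). Among CBDL mice 0 of 9 were called (1.78%), with 4 of 9 at an unadjusted p under 0.05 (13.7%). The arrays of A/J sham and B6 sham did not overlap for 4 of the 9 genes (18.7% of all probe sets), Muc3, Tff3, Zg16 and Agr2, all lower in A/J mice. Those of the CBDL groups did not overlap for 2 of 9 (21.7%), Zg16 and Retnlb, and those of B6 sham and B6 CBDL for 0 of 9 (15.5%). The array probes are designed on a reference sequence and the table gives no values of single probes, so a strain difference in RNA and one in probe binding cannot be told apart. The median log2 difference of the 9 genes was -0.11 between the shams, where it was 0.01 over all probe sets, and -0.09 between the CBDL groups, again with 0.01 over all.

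**Figure D1:**
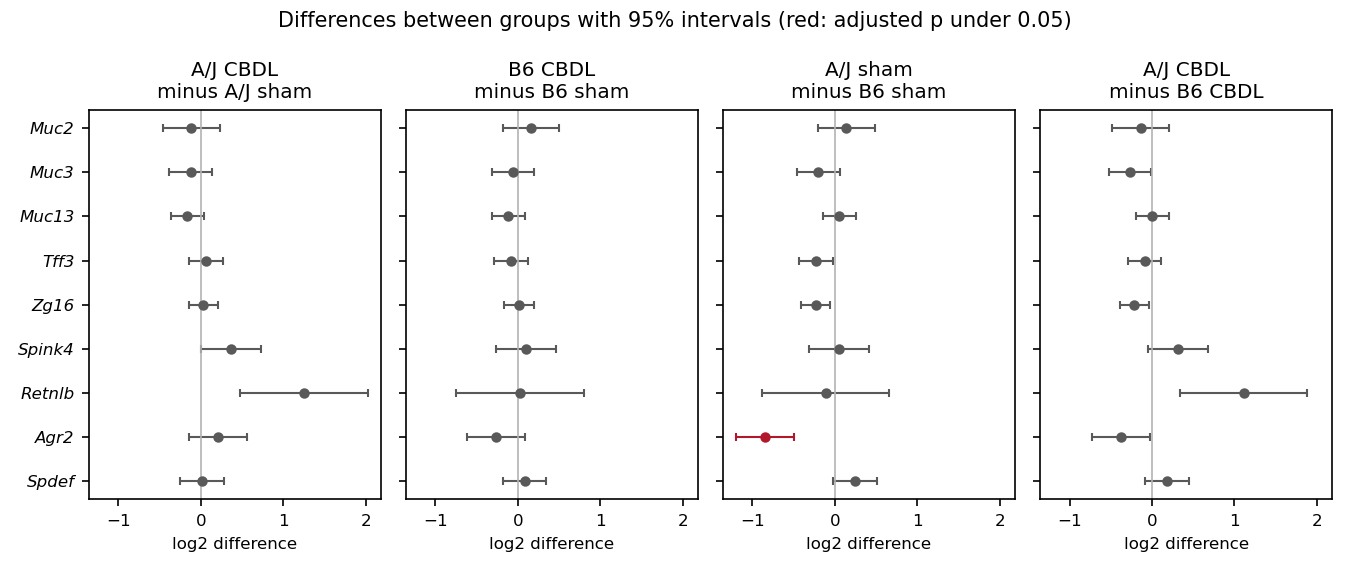
Log2 differences of the 9 genes between groups (horizontal axis) with 95% intervals from limma, 3 arrays per group, with calls at an adjusted p under 0.05 in red. Agr2 between the shams, at -0.84, is the single red point, and Retnlb has the widest intervals and lies farthest to the right in A/J CBDL against A/J sham, at 1.25.

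The secreted gel proteins are given first. Muc2 (probe set 10558992), the structural mucin of the intestinal gel, measured 11.34, 11.89 and 11.61 on the A/J sham arrays and 11.58, 11.27 and 11.64 on the A/J CBDL arrays. In B6 mice its signals were 11.43, 11.50 and 11.49 after sham and 11.88, 11.55 and 11.47 after CBDL. All 4 groups overlapped. The log2 difference after CBDL was -0.12 in A/J mice (standard error 0.16, 95% interval -0.46 to 0.23, limma adjusted p = 0.791) and 0.16 in B6 mice (interval -0.19 to 0.50, adjusted p = 0.922). The B6 sham arrays lay within an SD of 0.04 of each other, whereas the SD was 0.27 for A/J sham, 0.20 for A/J CBDL and 0.22 for B6 CBDL.

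Zg16 (probe set 10568165) encodes a lectin-like protein of the mucus that binds Gram-positive bacteria. It was 12.23, 12.34 and 12.40 in A/J sham and 12.27, 12.38 and 12.41 in A/J CBDL, against 12.60, 12.54 and 12.53 in B6 sham and 12.60, 12.50 and 12.59 in B6 CBDL. Every A/J array lay below every B6 array, and sham and CBDL overlapped in both strains. Averaged over operations the A/J minus B6 difference was -0.22 (standard error 0.06, adjusted p = 0.0546 from limma), just outside the threshold. The adjusted p was 0.0444 without the 30% dimmest probe sets, 0.0449 among probe sets with 1 gene name, 0.0223 with a trend and robust prior, 0.0240 with array weights, 0.0449 without A/J sham replicate 3, and at most 0.126 under any alternative. The change after CBDL was 0.03 in A/J mice and 0.01 in B6 mice, with 95% intervals of -0.15 to 0.21 and -0.17 to 0.19.

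Tff3 (probe set 10449657), the intestinal trefoil peptide that is secreted with Muc2 and aids repair of the epithelium, was 12.55, 12.45 and 12.39 in A/J sham and 12.39, 12.55 and 12.62 in A/J CBDL. The B6 values were 12.71, 12.79 and 12.59 after sham and 12.66, 12.59 and 12.58 after CBDL. The sham groups of the strains did not overlap, with A/J lower by a difference of -0.23 (standard error 0.09, limma adjusted p = 0.259), while the CBDL groups overlapped. Neither strain's CBDL difference was called, at 0.06 in A/J mice and -0.08 in B6 mice.

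The transmembrane mucins were the next group. Muc13 (probe set 10435288) measured 11.75, 11.94 and 11.89 in A/J sham and 11.70, 11.75 and 11.63 in A/J CBDL, and 11.89, 11.75 and 11.77 in B6 sham and 11.75, 11.73 and 11.58 in B6 CBDL. Sham and CBDL arrays overlapped in both strains, and the lowest array of each strain was CBDL replicate 3. Averaged over the strains the CBDL minus sham difference was -0.14 (standard error 0.06, unadjusted p = 0.0515 and adjusted p = 0.358 from limma).

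Muc3 (probe set 10534684) is the other transmembrane mucin here. Its signals were 12.42, 12.48 and 12.47 in A/J sham and 12.61, 12.14 and 12.25 in A/J CBDL. In B6 mice they were 12.69, 12.63 and 12.66 for sham and 12.60, 12.71 and 12.49 for CBDL. The sham groups did not overlap, and the highest A/J CBDL array lay among the B6 CBDL arrays. The strain difference averaged over operations was -0.23 (standard error 0.08, limma adjusted p = 0.146). It passed the threshold without A/J CBDL replicate 1 (-0.30, adjusted p = 0.0318) and with array weights (-0.25, adjusted p = 0.0421).

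**Figure D2:**
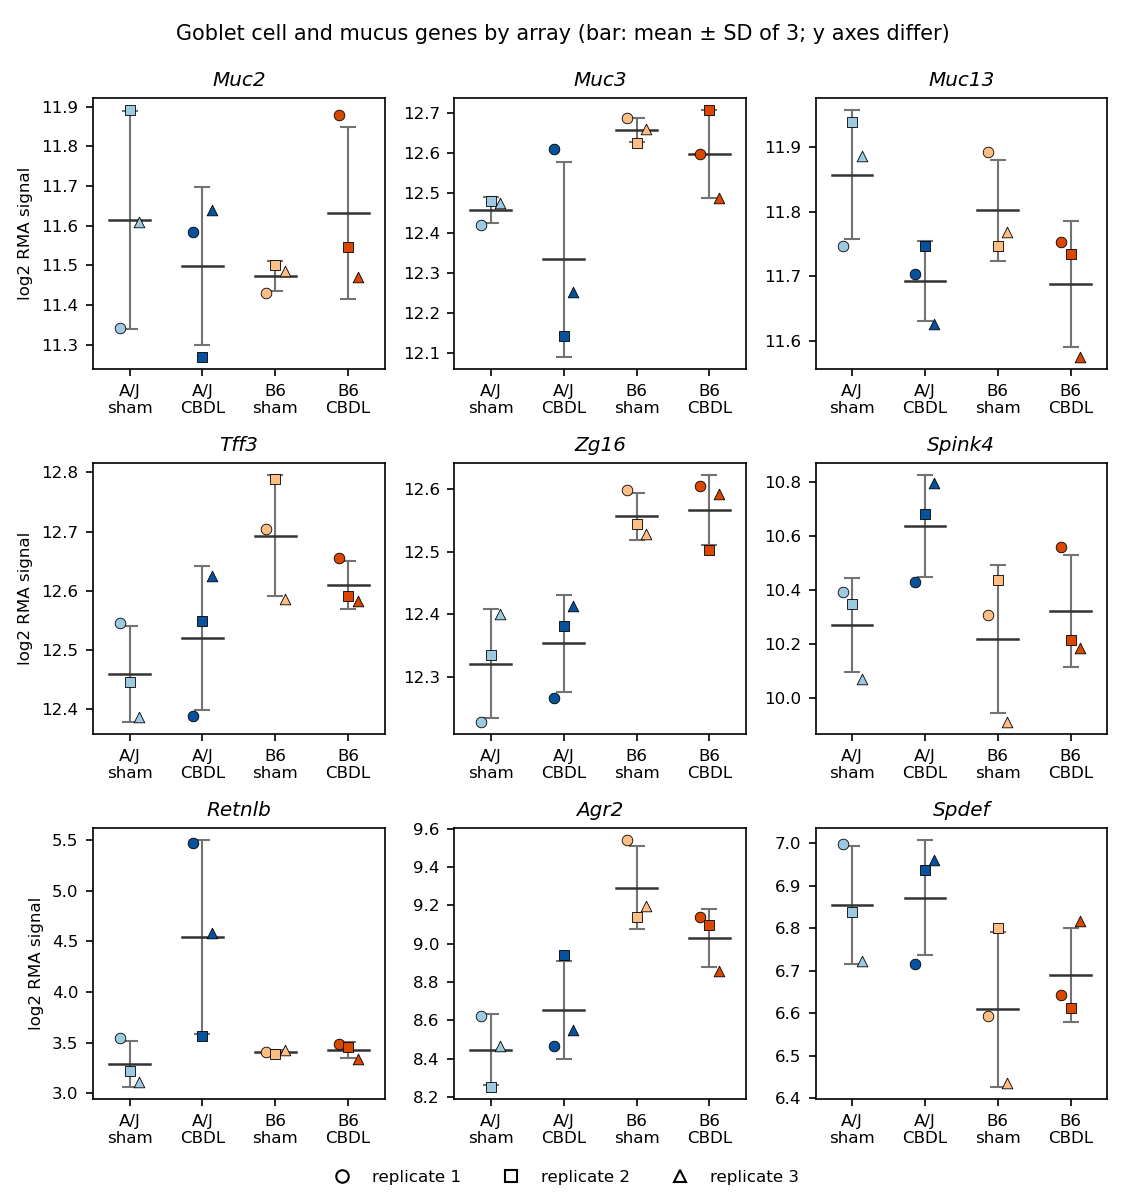
Log2 RMA signal of each of the 9 genes on the 12 arrays by group (horizontal axis), with symbols for replicate numbers and bars for the mean ± SD of 3 arrays; the vertical axes differ between panels. All A/J arrays lie below the B6 arrays for Zg16 and the A/J sham arrays do for Agr2, Muc2 shows no order of the groups, and Retnlb is raised on 2 of the 3 A/J CBDL arrays.

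Of the genes that act inside the cell, Agr2 (probe set 10395365), the endoplasmic reticulum disulfide isomerase that Muc2 needs for folding, was the gene called between the strains. Its signals were 8.62, 8.25 and 8.46 in A/J sham and 8.47, 8.94 and 8.55 in A/J CBDL. In B6 mice they were 9.54, 9.14 and 9.20 after sham and 9.14, 9.10 and 8.86 after CBDL. Every A/J sham array was below every B6 array of either operation, whereas the highest A/J CBDL array passed the lowest B6 CBDL array. A/J sham was lower than B6 sham by a log2 difference of -0.84 (standard error 0.16, adjusted p = 0.0213 from limma), 1.80-fold. The difference between the CBDL groups was -0.38 (standard error 0.16, adjusted p = 0.322), and averaged over operations it was -0.61 (standard error 0.11, adjusted p = 0.0110), 1.53-fold.

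The CBDL difference of Agr2 was 0.21 in A/J mice and -0.26 in B6 mice, and neither was called. The interaction, which sets these changes against each other, was 0.47 (standard error 0.22, unadjusted p = 0.0623, limma adjusted p = 0.744). The sham call for Agr2 was lost without A/J sham replicate 2 (-0.75, adjusted p = 0.101), without B6 sham replicate 1 (-0.72, adjusted p = 0.0812), without B6 sham replicate 3 (-0.89, adjusted p = 0.0573) and in a fit of the 6 sham arrays alone (adjusted p = 0.0864). The averaged call for Agr2 held under every alternative. Among markers of other crypt cells, averaged over operations, 4 of 6 stem cell markers were called lower in A/J mice, Lgr5, Olfm4, Smoc2 and Rnf43, and 1 of 6 measured Paneth cell markers, Defa24, against 4.63% of all probe sets called in either direction. The mean of the stem cell markers was 6.84 to 7.23 on the A/J arrays and 7.44 to 7.60 on the B6 arrays. Hepatocyte markers were lowest in A/J sham, as given above, and the part of these cells in the Agr2 difference was not tested.

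Spdef (probe set 10449377), the Ets factor of goblet cell maturation, had higher means in A/J than in B6 mice. It was 7.00, 6.84 and 6.72 in A/J sham and 6.72, 6.94 and 6.96 in A/J CBDL, against 6.59, 6.80 and 6.44 for B6 sham and 6.64, 6.61 and 6.82 for B6 CBDL. The operations overlapped in each strain, and the strains overlapped in each operation. The strain difference averaged over operations was 0.21 (standard error 0.09, limma adjusted p = 0.197), and the CBDL differences were 0.02 in A/J mice and 0.08 in B6 mice.

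Spink4 (probe set 10504002) and Retnlb were the genes whose A/J sham and A/J CBDL arrays did not overlap, both higher after CBDL. Spink4, a Kazal-type protease inhibitor made by goblet cells, was 10.39, 10.35 and 10.07 in A/J sham and 10.43, 10.68 and 10.80 in A/J CBDL. Lack of overlap between the A/J groups held for 2 of the 9 genes and for 17.1% of all probe sets. B6 mice had 10.31, 10.44 and 9.91 after sham and 10.56, 10.22 and 10.19 after CBDL, with overlap. The A/J difference was 0.37 (standard error 0.16, 95% interval 0.00 to 0.73, unadjusted p = 0.0480, limma adjusted p = 0.347), and it stayed between 0.27 and 0.47 under every alternative without being called.

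Retnlb (probe set 10436087) encodes the resistin-like molecule beta, a secreted protein of goblet cells that acts on bacteria. It was low on 10 of the 12 arrays. Its signals were 3.55, 3.22 and 3.11 in A/J sham, with 3.41, 3.38 and 3.42 for B6 sham and 3.49, 3.46 and 3.34 for B6 CBDL. The A/J CBDL arrays had 5.48, 3.56 and 4.58, so replicates 1 and 3 stood above every other array and replicate 2 was close to the highest A/J sham array. The A/J CBDL minus sham difference was 1.25 (standard error 0.35, 95% interval 0.47 to 2.02, unadjusted p = 0.00458, limma adjusted p = 0.143), against 0.02 in B6 mice, and the A/J minus B6 difference among CBDL mice was 1.11 (adjusted p = 0.171). The interaction was 1.22 (standard error 0.50, unadjusted p = 0.0317, adjusted p = 0.693).

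Retnlb was thus not called in any comparison, and calls arose only under some of the alternatives. Without A/J CBDL replicate 2 the A/J difference was 1.74 (limma adjusted p = 0.0188), that between the CBDL groups 1.60 (adjusted p = 0.0110), the CBDL average 0.88 (adjusted p = 0.0304) and the strain average 0.74 (adjusted p = 0.0249). Without A/J CBDL replicate 1 or 3 no such call was made, and the A/J difference ran down to 0.78. With array weights the Retnlb difference in A/J mice was 1.31 (adjusted p = 0.0338). Retnlb was among the 30% dimmest probe sets.

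Genes that share features with Retnlb were read on the same arrays, and Retnlg, Dclk1, Trpm5 and the mast cell proteases were picked for naming after their values were seen. Retnla and Retnlg, resistin family members, lie next to Retnlb in the genome. Retnlg, which neutrophils express, was 5.39, 5.31 and 5.65 in A/J CBDL and 4.49, 4.36 and 4.69 in A/J sham, without overlap. It rose by 0.94 (standard error 0.14, limma adjusted p = 0.0123) and, unlike Retnlb, was raised on replicate 2 as well. The other family members, Retn and Retnla, were not called after CBDL in A/J mice, with differences of -0.26 and -0.04.

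Tuft cells are chemosensory epithelial cells whose IL25 starts the type 2 response. The mean of 7 tuft cell markers was 6.07, 5.74 and 6.46 on the A/J CBDL arrays and 5.64 to 5.94 on the others, the same order of replicates 1 and 3 over 2. Dclk1 was 7.11, 6.63 and 7.63 and Trpm5 was 6.61, 6.01 and 7.42 in A/J CBDL, and none of the 7 markers was called in any comparison. In A/J mice 6 of the 7 had a higher mean after CBDL and 1 a lower mean. The lower one was Sucnr1, with means of 4.40 in A/J sham and 4.21 in A/J CBDL, while Il17rb had 5.54 and 5.65. Mcpt1, a protease of mucosal mast cells, was 8.29, 5.17 and 8.56 in A/J CBDL and 9.61, 8.81 and 8.23 in A/J sham, and at most 5.10 on the B6 arrays. The cytokine transcripts Il13, at 4.81 to 5.23 in A/J CBDL and 4.85 to 5.43 in A/J sham, and Il25, at 4.35 to 4.57 and 4.35 to 4.86, overlapped between these groups. Whether these cells had a part in the Retnlb values was not tested.

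**Figure D3:**
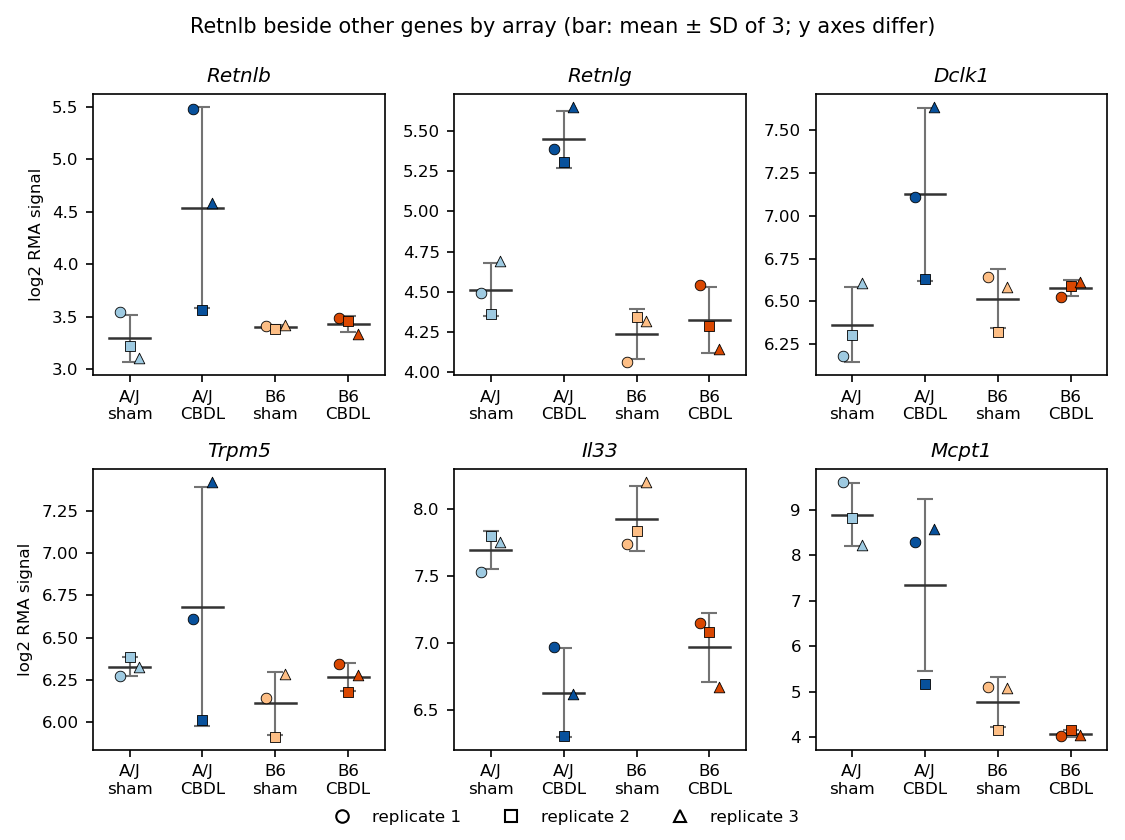
Log2 RMA signal of Retnlb, Retnlg, Dclk1, Trpm5, Il33 and Mcpt1 on the 12 arrays by group (horizontal axis), with symbols for replicate numbers and bars for the mean ± SD of 3 arrays; the vertical axes differ. A/J CBDL replicate 2 is the lowest of its group for all 6 genes, Retnlg is above A/J sham on all 3 A/J CBDL arrays, and Il33 is lower after CBDL in both strains.

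The 9 genes did not all vary together within groups. Over the 36 pairs of the 9 genes, the correlation of deviations from the group mean (12 arrays, with group means removed) had a median of 0.07 and ran from -0.64 to 0.90, and 20 of the 36 were above 0. Tff3 with Spink4 had the highest value, 0.90, and Spdef had 0.825 with Tff3 and 0.672 with Spink4. The lowest value was that of Muc3 with Spdef. All genes of an array share its library and scaling, so these values are a description. A/J CBDL replicate 2 had the lowest value of its group for 13 of 25 goblet cell genes, among them Muc2, Retnlb, Clca1 (11.17 against 11.94 and 11.89) and Ang4, and for 3 of the 9 genes treated here. This array did not stand alone in that count, since A/J sham replicate 1 was the lowest of its group for 15 of the 25 genes and B6 CBDL replicate 3 for 12 of the 25 and 7 of the 9. A/J CBDL replicate 2 had the highest mean of the 8 enteroendocrine markers, 8.55.

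**Figure D4:**
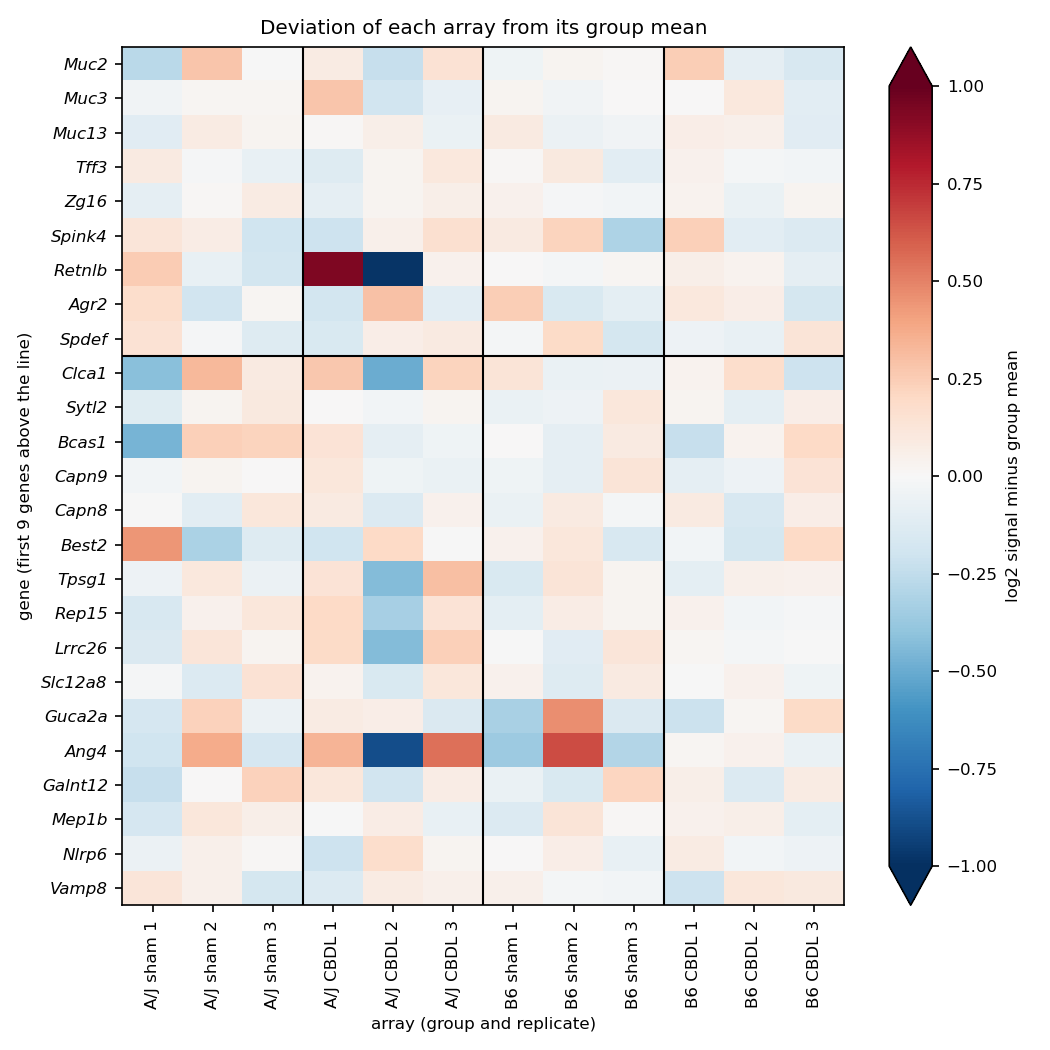
Deviation of each array from its group mean (log2 signal, colour) for the 9 genes, above the line, and 16 other goblet cell genes, below it; columns are the 12 arrays. The darkest cells are Retnlb on A/J CBDL replicates 1 and 2 and Ang4 on A/J CBDL replicate 2.

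The genes whose level followed Muc2 most closely over the 12 arrays, among 21780 probe sets with 1 name, were Krtap6-3 (Pearson r = 0.881), Stk38l (0.872), 5730522E02Rik (0.852), Myh9 (0.851) and Dctn4 (0.848). Without the 2 arrays farthest from the median of Muc2, these were 0.787, 0.713, 0.661, 0.848 and 0.521 in the same order, and Krtap6-3 and 5730522E02Rik were dim, with means of 2.92 and 2.59. For the mean of the 9 genes they were Phf20 (0.946), Fcgr2b (0.910), Setd4 (0.893), Lilr4b (0.867) and Asb5 (0.834), and without the 2 arrays farthest from the median of that mean these were 0.902, 0.862, 0.862, 0.864 and 0.695. No gene of the goblet cell lists was among these 10, and correlations picked as the highest of so many probe sets over 12 arrays are a description.

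Further genes of the mucus pathway were read as lists. Of 12 other mucins and trefoil factors, none was called after CBDL in either strain (0.818% of all probe sets in A/J mice, 0.0534% in B6). There 2 of 12 in A/J mice and 1 of 12 in B6 mice had an unadjusted p under 0.05 in limma (14.2% and 7.64%). In both operations 1 of 12 was called lower in A/J than in B6 mice (1.87% of all probe sets in sham, 1.78% in CBDL). It was Muc4, a transmembrane mucin. Its signals were 5.81, 5.44 and 5.59 in A/J sham and 5.36, 5.38 and 5.42 in A/J CBDL, against 7.27, 6.62 and 6.95 for B6 sham and 6.92, 6.92 and 6.51 for B6 CBDL, without overlap between the strains. The A/J minus B6 difference was -1.33 in sham mice (standard error 0.17, limma adjusted p = 0.00260) and -1.40 in CBDL mice (adjusted p = 0.00231), and both calls held under every alternative. The list's median was 0.10 between the shams and 0.05 between the CBDL groups, opposite in sign to Muc4. Group means of Muc1, Muc5ac, Muc5b, Muc6, Muc15, Muc16, Muc19, Muc20 and Tff2 were 2.89 to 4.92, below the lowest array median of 5.36. The list was thus mostly dim, and its median and lack of CBDL calls say little about these mucins.

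Of 16 other goblet cell genes, 1 was called higher and 0 lower in A/J mice between the shams (1.87% of all probe sets). Averaged over operations, 2 were called higher and 1 lower (4.63%). After CBDL 0 of 16 were called in A/J mice (0.818%), 0 of 16 in B6 mice (0.0534%) and 1 of 16 averaged over the strains (1.74%). At an unadjusted p under 0.05 in limma these counts were 4 of 16 (14.2%), 3 of 16 (7.64%) and 6 of 16 (14.1%). Guca2a, which encodes guanylin, the peptide that drives chloride secretion through guanylate cyclase C, was 11.88, 12.28 and 11.99 in A/J sham and 10.31, 11.10 and 10.49 in B6 sham. It was 12.43, 12.41 and 12.21 in A/J CBDL and 11.34, 11.57 and 11.75 in B6 CBDL. The A/J arrays were above the B6 arrays throughout, and the B6 CBDL arrays were above the B6 sham arrays. Guca2a was higher in A/J sham by 1.42 (standard error 0.19, limma adjusted p = 0.00378), a call lost in a fit of the 6 sham arrays alone (adjusted p = 0.0534). The CBDL change in B6 mice was 0.92 (standard error 0.19, unadjusted p = 0.000625, adjusted p = 0.145). By the study's own list, Guca2a in B6 mice and Capn8 in A/J mice were higher after CBDL at an FDR under 0.05.

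Further genes of that list were called in averages. Tpsg1, a tryptase, was lower in A/J mice by a difference of -0.60 (standard error 0.12, limma adjusted p = 0.0142). Rep15, a Rab15 effector, was higher in A/J mice by 0.45 (adjusted p = 0.0231), and its adjusted p was 0.0511 to 0.0623 without A/J sham replicate 2, A/J CBDL replicate 3, B6 sham replicate 1 or 3, or B6 CBDL replicate 2. Capn8, a calpain of mucus-secreting cells, was higher after CBDL over both strains by 0.42 (adjusted p = 0.0181), and its adjusted p was 0.0559 to 0.0581 without A/J sham replicate 2, B6 sham replicate 1 or B6 CBDL replicate 3. Capn8 was 5.28 to 5.50 on the A/J sham arrays and 5.77 to 5.99 on the A/J CBDL arrays, and the B6 arrays were 5.47 to 5.63 and 5.70 to 5.96, without overlap in either strain. Clca1, a secreted mucus metalloprotease, was not called in any comparison.

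Of 14 secretory lineage factors and Notch genes, 1 was called, lower in A/J mice. Shares of all probe sets called were 1.87% between the shams and 4.63% averaged over operations. Dll1, the Notch ligand of secretory precursors, was 6.73, 6.96 and 7.11 in A/J sham and 7.79, 7.61 and 7.66 in B6 sham. The CBDL arrays had 6.88, 7.21 and 6.72 in A/J and 7.36, 7.47 and 7.58 in B6 mice. The strains did not overlap in either operation. The Dll1 difference was -0.75 between the shams (standard error 0.14, limma adjusted p = 0.0179) and -0.64 averaged over operations (adjusted p = 0.00334). The sham call for Dll1 was lost without A/J sham replicate 1 or 2 or B6 sham replicate 1 or 3 (adjusted p = 0.0595 to 0.0750) and with the sham arrays alone (adjusted p = 0.0673), while the averaged call held under every alternative.

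Of 14 mucin folding and endoplasmic reticulum stress genes, 1 was called lower in A/J mice in the strain average (4.63% of all probe sets). In the CBDL average 1 was called lower after CBDL (1.74%). Atf6, a sensor of unfolded protein, was 7.42, 7.54 and 7.40 in A/J CBDL and 8.12, 7.87 and 7.96 in B6 CBDL, a difference of -0.53 (standard error 0.10, limma adjusted p = 0.0207). That Atf6 call was lost without A/J CBDL replicate 1 or 3 or B6 CBDL replicate 1 or 3 (adjusted p = 0.0608 to 0.0886), with the 6 CBDL arrays alone (adjusted p = 0.0718) and with a replicate block (adjusted p = 0.0611), and the averaged difference of -0.42 (adjusted p = 0.00564) held. Ddit3, the stress factor CHOP, differed by -0.54 after CBDL over both strains (standard error 0.11, limma adjusted p = 0.0380). The adjusted p of this average was 0.0583 to 0.101 when any single array other than B6 sham replicate 2 was left out. Ddit3 means were 6.90 in A/J sham and 6.63 in A/J CBDL, and 7.20 in B6 sham and 6.38 in B6 CBDL. The study's own list gives Ddit3 as lower after CBDL in B6 mice at an FDR under 0.05, with no value for A/J mice. In A/J mice 12 of the 14 genes had a lower mean after CBDL, with a median of -0.23, against -0.01 and 52.4% negative over all probe sets, and 0 of 14 were called there, with 4 of 14 at an unadjusted p under 0.05 (14.2% of all probe sets). In B6 mice 10 of the 14 had a higher mean after CBDL, with a median of 0.04, against -0.0025 and 50.7% negative over all probe sets. The B6 differences ran from -0.82 to 0.28, with 0 of 14 called (0.0534%) and 3 of 14 at an unadjusted p under 0.05 (7.64%). The test of whether CBDL acted differently in the strains called 0 of 14 (0.0366%), with 1 of 14 unadjusted (6.88%).

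The O-glycosylation enzymes gave 1 call of 14, in the CBDL average (1.74% of all probe sets). It was St3gal1, a sialyltransferase, lower after CBDL over both strains by a difference of -0.44 (standard error 0.09, limma adjusted p = 0.0317). This call for St3gal1 was lost with a replicate block (adjusted p = 0.0639) and when any single array other than A/J sham replicate 1 or 3 was left out (adjusted p = 0.0544 to 0.0914).

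Among the type 2 and IL22 signals, 11 of 12 genes had a value, Il22 having no probe set of its own name. Il33, an alarmin of epithelial and stromal cells that starts type 2 responses, was lower after CBDL in both strains, without overlap. It was 7.53, 7.80 and 7.75 in A/J sham and 6.97, 6.30 and 6.62 in A/J CBDL, and 7.74, 7.84 and 8.20 in B6 sham and 7.15, 7.08 and 6.67 in B6 CBDL. Averaged over the strains Il33 fell by 1.01 (standard error 0.13, limma adjusted p = 0.00495), a call that held under every alternative. The A/J difference alone was -1.07 (adjusted p = 0.0299) and that in B6 mice -0.96 (adjusted p = 0.117). In the study's own list Il33 is given as lower after CBDL in both strains at an FDR under 0.05. The A/J call for Il33 was lost without A/J sham replicate 2, A/J CBDL replicate 2 or 3 or B6 CBDL replicate 2 (adjusted p = 0.0504 to 0.129), with the 6 A/J arrays alone (adjusted p = 0.0847) and with a replicate block (adjusted p = 0.0737).

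Receptors of these cytokines were also called. Il13ra1, a chain of the IL13 receptor, had a CBDL difference of -0.52 over both strains (standard error 0.10, limma adjusted p = 0.0229), and the adjusted p was 0.0519 to 0.0701 without A/J sham replicate 2, A/J CBDL replicate 2, B6 sham replicate 1 or 3, or B6 CBDL replicate 1 or 3. Il22ra1, the IL22 receptor chain of epithelial cells, was 9.42, 9.63 and 9.27 in A/J CBDL and 8.79, 8.79 and 8.74 in B6 CBDL. This difference of 0.67 (standard error 0.13, adjusted p = 0.0281) was lost without A/J CBDL replicate 1 or 2 or any B6 CBDL array (adjusted p = 0.0760 to 0.102). In sham mice Il22ra1 lay between 8.59 and 9.03 in both strains, and its interaction was 0.71 (unadjusted p = 0.00282, adjusted p = 0.512).

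**Figure D5:**
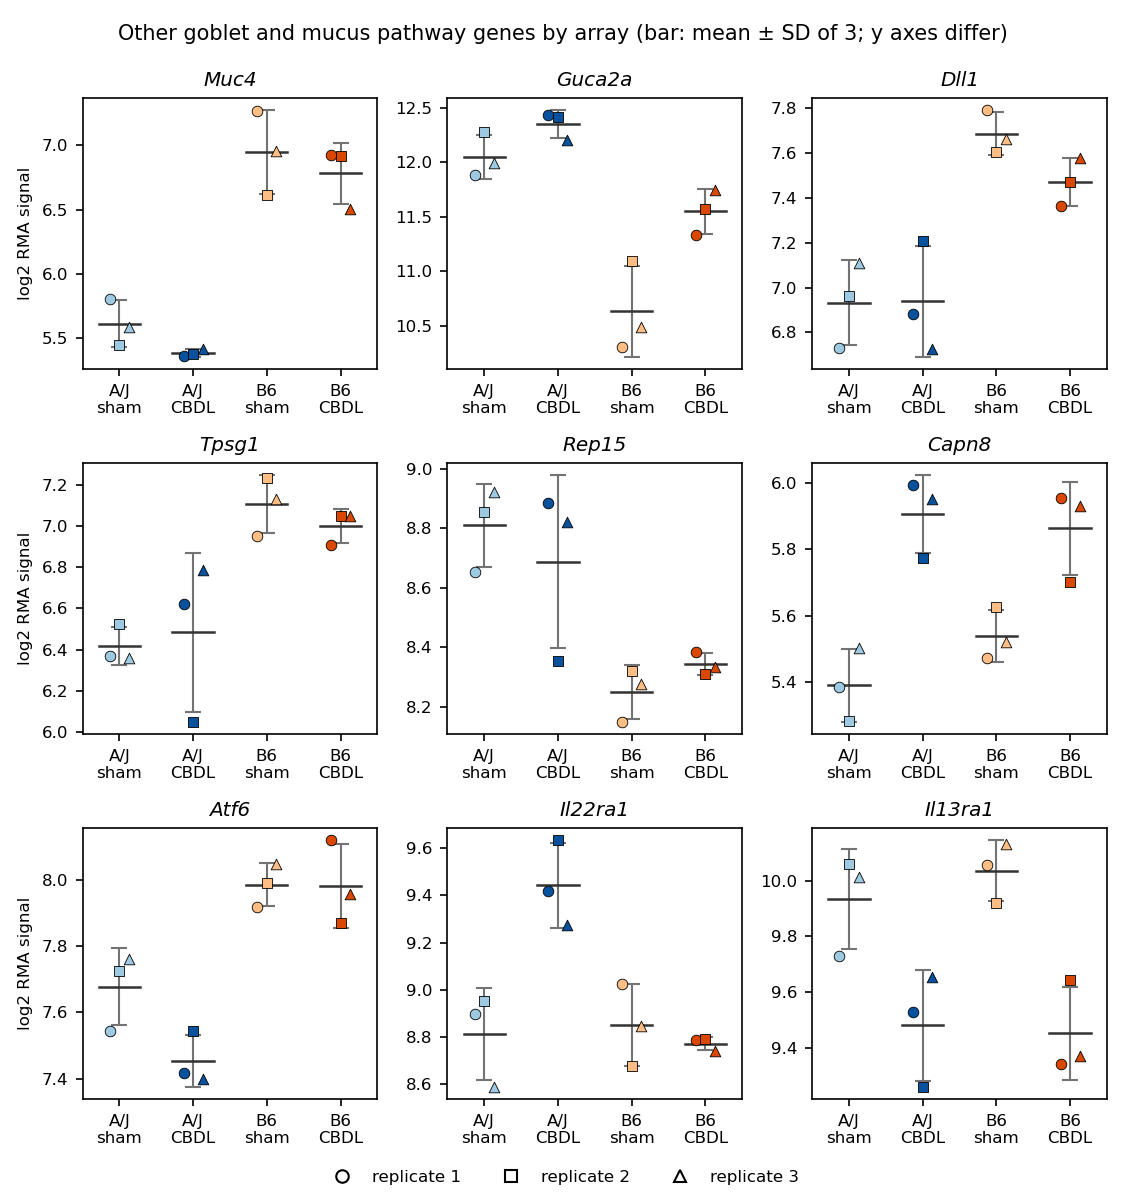
Log2 RMA signal of 9 further mucus pathway genes on the 12 arrays by group (horizontal axis), with symbols for replicate numbers and bars for the mean ± SD of 3 arrays; the vertical axes differ. Muc4, Dll1 and Tpsg1 are lower and Guca2a is higher on the A/J arrays, Capn8 is higher after CBDL in both strains, and Il22ra1 is highest on the A/J CBDL arrays.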

How the data were processed

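Deposited values are log2 signals that the authors made, per the labels, by RMA in the Affymetrix Expression Console (version not given in the sources used here), whereas the study's methods name GCRMA and another array type. They were used as deposited. Of the 35556 probe sets, 21789 carry 1 gene name in the platform's table, 1621 several and 12146 none. Group means were estimated from the 12 arrays together in limma 3.58.1 (R 4.3.3) with moderated variances, and 7 comparisons were taken from this fit. Calls were made at a Benjamini-Hochberg adjusted p under 0.05 across the table, and the code was tested on simulated data. Python 3.11.15 gave correlations, overlaps and figures. No batch is given by the labels. All listed genes were named, with up to 4 called genes of each of 6 further lists and the 5 genes most like Muc2 and the mean of the 9. Genes and lists were chosen with earlier results of these data known. The alternatives were to fit the compared arrays alone, to drop dim probe sets, to keep probe sets with 1 name, to count all probe sets of a gene, to normalize by quantiles or medians, to use a trend and robust prior, array weights or a replicate block, and to leave out each array. Each of the 9 genes has 1 probe set, so counting all probe sets of a gene could not change a count.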

Additional observations from a re-analysis of the deposited data

How the results depend on the processing

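Sign changes were limited to small differences that were not called: 17 of 63 differences of the 9 genes changed sign under an alternative, and the largest of these was -0.12. Under quantile normalization the Spdef difference in A/J mice was -0.0361 and the CBDL averages of Muc2 and Tff3 were -0.0398 and 0.0072. With array medians subtracted, Zg16 and Spdef in A/J mice were -0.0145 and -0.0292 and the Zg16 interaction was -0.0425. With array weights, Zg16 in B6 mice was -0.015, Muc13 between the CBDL groups -0.0168, and the CBDL averages of Muc2 and Tff3 -0.0517 and 0.0124. Leaving out single arrays, the A/J differences after CBDL ran from -0.252 to 0.0227 for Muc2, -0.0141 to 0.0759 for Zg16 and -0.0475 to 0.0953 for Spdef. Those in B6 mice ran from -0.0092 to 0.0414 for Zg16, -0.0519 to 0.212 for Spink4, -0.0045 to 0.0696 for Retnlb and -0.0062 to 0.176 for Spdef. Spink4 between the shams ran from -0.103 to 0.160 and Muc13 between the CBDL groups from -0.0519 to 0.0376. Interactions ran from -0.201 to 0.0327 for Muc3, -0.0238 to 0.0662 for Zg16 and -0.158 to 0.0238 for Spdef. CBDL averages ran from -0.0466 to 0.0907 for Muc2, -0.038 to 0.0219 for Tff3, -0.0023 to 0.0427 for Zg16 and -0.0997 to 0.035 for Agr2, and the strain average of Muc2 from -0.0663 to 0.071. The cause was not tested.

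Of the 9 genes, the number called in A/J mice was 1 with array weights and 0 to 1 leaving out single arrays. Between the shams it was 0 with the compared arrays alone and 0 to 1 leaving out single arrays, and in the strain average it was 3 with array weights, 2 without the 30% dimmest probe sets, among probe sets with 1 name or with a trend and robust prior, and 1 to 2 leaving out single arrays. Between the CBDL groups and in the CBDL average it was 0 to 1 leaving out single arrays. Correlations of the deviations of same-numbered arrays ran from -0.31 to 0.36. With 3 arrays per group these values cannot show whether such arrays shared a batch. A replicate block gave 1 call between the shams and 1 in the strain average and 0 in the other 5 comparisons, as without it; of the further genes it ended the calls of Il33 in A/J mice, Atf6 between the CBDL groups and St3gal1. The compared arrays alone were not run for the interaction and the averages, which use all 12. Retnlb is limited by its dim signal, and every difference by the 3 arrays per group.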
